A study of Mus musculus with 6 samples.

Results

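Peroxisomes are single-membrane organelles that shorten very long and branched fatty acids, break down hydrogen peroxide and make the first part of ether lipids. Their matrix enzymes are made on free ribosomes and brought in by the peroxins, encoded by the Pex genes. New peroxisomes arise by growth and division, and many peroxisomal enzymes are targets of the fatty acid receptor PPARα. In skeletal muscle, peroxisomes work beside mitochondria in fatty acid oxidation.

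The expression of 33 genes of peroxisome biogenesis and metabolism was examined in gastrocnemius, a calf muscle, among 19938 named genes on the arrays. The genes were given by name and were each taken from the probe set with the highest mean among those whose only annotated symbol was that gene. All 33 were found, each with 1 probe set, and all 33 passed the filter on dim probe sets. The set covers import and membrane assembly (11 genes), the Pex11 division factors (2), the Pxmp and Mpv17 membrane proteins (3), the ABC transporters (3), beta-oxidation and its side enzymes (10), alpha-oxidation with the racemase (3), and catalase. For 2 genes the name of the set is broader than the biology, since Abcd4 is known as a lysosomal cobalamin transporter and Mpv17 as a protein of the mitochondrial inner membrane.

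Muscle came from 3 knockout males, labelled as homogenous for the loss of SPARC, and from 3 wild type males, all 12 weeks old. Both genotypes carry the strain label B6;129S-Sparctm1Hwe/J, a mixed B6 and 129S background, with no statement on littermates. SPARC is a secreted protein that binds collagen, and the study asked how metabolic gene expression in muscle differed without it. Each array was taken as 1 mouse, and the values are log2 intensities after the authors' RMA.

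Sparc read 6.74, 6.46 and 5.83 in the knockouts, against 11.80, 11.73 and 11.87 in the wild types, a 43.9-fold lower level that matches the labels (log2 fold change -5.46 ± 0.20, SE; limma adjusted p = 2.08e-05). All 14 skeletal muscle markers passed the filter, with Acta1, skeletal actin, at 13.20 to 13.36 in the knockouts and 13.44 to 13.48 in the wild types. In the fit over 16487 genes, 164 passed an adjusted p of 0.05 (0.995%), of which 111 were lower in the knockouts (0.673%) and 53 higher (0.321%). Two-sided limma p-values adjusted over all of these genes are used throughout, and errors after a log2 fold change are standard errors of that fit. The number of genes called depended on single arrays, with 1017 without knockout array 2 and 32, 30 and 27 without wild type arrays 1, 2 and 3.

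Of the 33 peroxisomal genes, 29 (87.9%) had a lower mean in the knockouts, against 50% of the 16487 genes tested. The threshold was passed by 2 of them, Pxmp2 and Pex11a, both lower (6.06% of the set against 0.673% of all genes), and by none in the other direction. With p under 0.05 before adjustment, 11 were lower (33.3%, against 10.3% of all genes) and none higher (against 8.16%). In 13 of the 33 every knockout array lay below every wild type array (39.4%, against 13.8% of all genes), and in none did every knockout array lie above (against 11.1%), where 25% of all genes had no overlap in either direction. The median log2 fold change was -0.19, with 0.00 over all genes. Without knockout array 3 the median was -0.10.

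**Figure D1:**
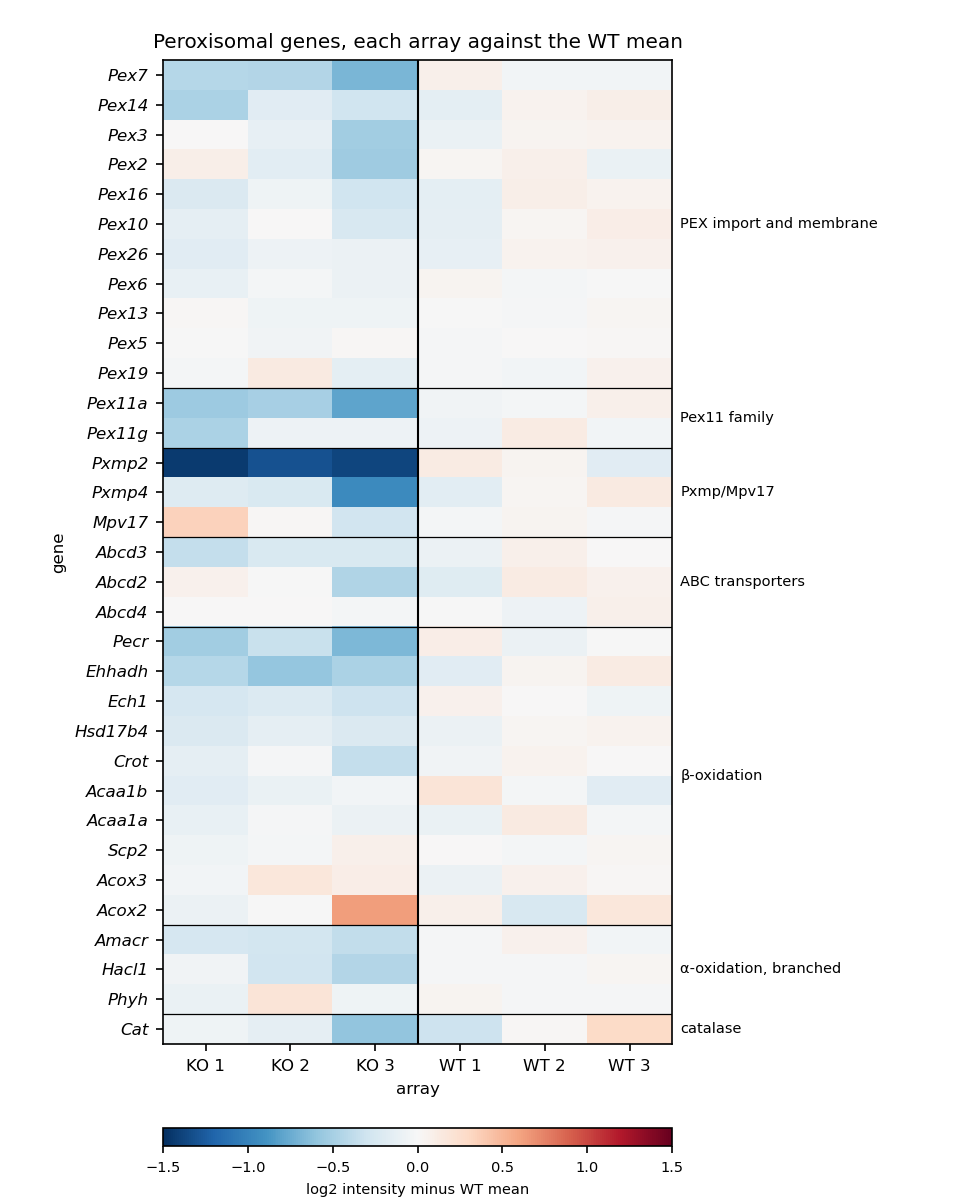
Log2 intensity of each of the 33 peroxisomal genes (rows, grouped by role) minus its wild type mean, in the 3 knockout (KO) and 3 wild type (WT) arrays (columns). Blue is below the wild type mean and red above it. Pxmp2 is blue in all 3 knockout arrays. Knockout array 3 holds the lowest value of all 6 arrays for 17 of the 33 genes, a count not made over all genes.

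Pxmp2, a channel-forming protein of the peroxisomal membrane, fell most of the 33. It read 6.82, 6.96 and 6.89 in the knockouts, against 8.38, 8.30 and 8.09 in the wild types. The knockout arrays lay close together and far below every wild type array. The log2 fold change was -1.37 ± 0.10 (SE), a 2.59-fold lower level, with an adjusted p of 0.00124 that was the 7th smallest of all genes tested. The call was kept in all 16 alternative settings, with adjusted p-values of 0.000667 to 0.0159. Pxmp2 lies on chromosome 5 and Sparc on chromosome 11, and in the RefSeq gene order the neighbours of Pxmp2 are Pgam5 and Pole. A part of gene position or strain background in the Pxmp2 difference was not tested. Pgam5 and Pole, looked up after the Pxmp2 result was seen, had log2 fold changes of -0.32 ± 0.10 and -0.32 ± 0.11 (SE; adjusted p = 0.146 and 0.173). Both were lower, and neither passed.

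The other membrane proteins of this kind did not pass. Pxmp4, a further peroxisomal membrane protein, read 8.55, 8.51 and 7.78 in the knockouts, against 8.58, 8.76 and 8.87 in the wild types. Every knockout array lay below every wild type array, knockout array 3 by far the most, and the log2 fold change of -0.46 ± 0.20 (SE; adjusted p = 0.265) was -0.21 without that array. Mpv17 was at 9.53, 9.21 and 8.90 in the knockouts, around the narrow range of 9.16 to 9.23 in the wild types. Its log2 fold change of 0.03 ± 0.15 (SE) changed sign with median centring and with array weights, to -0.02 and -0.03.

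Pex11a, a membrane protein that elongates peroxisomes ahead of division, also fell. It read 6.78, 6.82 and 6.53 in the knockouts, against 7.27, 7.30 and 7.40 in the wild types, with no overlap. The log2 fold change was -0.61 ± 0.11 (SE), a 1.53-fold lower level, with an adjusted p of 0.0426. That p lay near the threshold and was 0.0677 with each array centred on its median, 0.0670 without knockout array 3 and 0.184, 0.190 and 0.227 without wild type arrays 1, 2 and 3. Pex11g, of the same family, read 5.44, 5.84 and 5.83 in the knockouts, against 5.83, 6.03 and 5.87 in the wild types. The groups overlapped, and its log2 fold change of -0.21 ± 0.13 (SE; adjusted p = 0.445) rested mainly on knockout array 1, since it was -0.08 without that array.

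The promoters of the peroxisomal genes were compared, whichever way the gene differed, and were taken as the 250 bases before the RefSeq gene start (GRCm38.p6). Of the 33 genes, 26 had at least 1 such window in the RefSeq promoter table, 31 windows in all, and Pxmp2, Amacr, Abcd2, Abcd4, Hsd17b4, Pex2 and Pex19 had none there. The windows of the 4 genes with the smallest p among those covered are shown, 5′ to 3′ on the gene's strand. Capitals mark the GC box GGGCGG, the CCAAT box, the ETS-family core CTTCCG, the nuclear receptor unit AGGTCA and the TATA box TATAAA, each searched on both strands, so that a match on the other strand appears as its reverse complement.
Pex11a, minus strand, chr7:79743132-79743381: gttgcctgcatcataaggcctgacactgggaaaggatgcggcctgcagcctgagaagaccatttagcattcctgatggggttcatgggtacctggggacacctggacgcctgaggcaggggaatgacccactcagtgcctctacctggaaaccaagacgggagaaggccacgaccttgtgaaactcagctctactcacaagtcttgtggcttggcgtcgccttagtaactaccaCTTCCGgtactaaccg
Pex7, minus strand, chr10:19907675-19907924: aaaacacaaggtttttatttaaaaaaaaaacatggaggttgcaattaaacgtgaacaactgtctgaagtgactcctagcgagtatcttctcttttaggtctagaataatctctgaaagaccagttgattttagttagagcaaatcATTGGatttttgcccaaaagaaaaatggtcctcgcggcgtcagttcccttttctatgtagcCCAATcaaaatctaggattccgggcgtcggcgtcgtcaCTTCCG
Ehhadh, minus strand, chr16:21787835-21788084: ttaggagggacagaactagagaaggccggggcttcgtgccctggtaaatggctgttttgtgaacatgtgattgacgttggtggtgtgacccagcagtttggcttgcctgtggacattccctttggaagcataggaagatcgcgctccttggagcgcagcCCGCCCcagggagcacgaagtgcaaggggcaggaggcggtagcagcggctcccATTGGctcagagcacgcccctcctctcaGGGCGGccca
Pecr, minus strand, chr1:72284322-72284571: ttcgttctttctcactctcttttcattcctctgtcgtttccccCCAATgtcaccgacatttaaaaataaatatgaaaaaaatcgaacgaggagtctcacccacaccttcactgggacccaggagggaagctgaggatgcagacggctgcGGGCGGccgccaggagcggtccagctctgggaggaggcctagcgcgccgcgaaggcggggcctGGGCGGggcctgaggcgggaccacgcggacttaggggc

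The 4 windows were not alike in these letters. Pex11a held only the ETS core, close to the gene start, and Pex7 held the ETS core and 2 CCAAT boxes. Ehhadh and Pecr each held 2 GC boxes and 1 CCAAT box. Over all 31 windows, 18 held a GC box (58.1%, against 32.7% of the 32851 windows of all genes), 13 a CCAAT box (41.9%, against 33.9%), 8 the ETS core (25.8%, against 13.6%) and 3 a TATA box (9.68%, against 12.4%). The AGGTCA unit was in 3 (9.68%, against 14.0%). The ETS core was searched after the sequences had been read. The median G and C content was 57.6% in the members' windows and 52.4% in all windows.

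PPARα with its partner RXR binds a pair of such units with 1 base between, AGGTCANAGGTCA, a motif that contains AGGTCA itself. With up to 2 of its 12 fixed letters changed, it matched 1 of the 31 windows (3.23%, against 3.24% of all windows). The match lay in the promoter of Cat, the catalase gene, 204 bases before the start, and is shown because it was the only one. Capitals here mark the whole match.
Cat, minus strand, chr2:103485345-103485357: AGGTCAGAGAACA

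Among the 11 peroxins of import and membrane assembly, which leave out Pex11a and Pex11g, none passed the threshold. All 11 nevertheless had negative log2 fold changes (50% of all genes did). With an unadjusted p under 0.05, 2 were lower (18.2%, against 10.3% of all genes). Pex7, the receptor for enzymes with an N-terminal import signal, was lowest. It read 7.80, 7.79 and 7.54 in the knockouts, against 8.30, 8.19 and 8.18 in the wild types, a log2 fold change of -0.52 ± 0.10 (SE; adjusted p = 0.0624). The groups were separated by more than the spread within either, and it passed without knockout array 2 (adjusted p = 0.0339) and with array weights (0.0348). In those settings 1017 and 329 of all genes passed, against 164 in the reported fit. Pex5, the receptor for the C-terminal signal that most matrix enzymes carry, read 6.56, 6.52 and 6.58 in the knockouts, against 6.55, 6.58 and 6.59 in the wild types. Its groups overlapped, and the log2 fold change was -0.02 ± 0.09 (SE; adjusted p = 0.952). Whether Pex7 and Pex5 differed from each other in their response was not tested.

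The genes of enzymes that Pex7 is known to import did not pass either. Phyh was at 0.01 ± 0.10, and the thiolases Acaa1a and Acaa1b at -0.08 ± 0.10 and -0.11 ± 0.12 (log2 fold change ± SE). Agps, an ether lipid enzyme looked up for this purpose, was at 0.18 ± 0.09 (SE; adjusted p = 0.355). Acaa1a and Acaa1b are close copies, so their probe sets may read each other's transcript.

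The docking complex receives both receptors at the membrane. Pex14, one of its parts, read 6.55, 6.85 and 6.72 in the knockouts, against 6.88, 7.07 and 7.11 in the wild types. Every knockout array lay below every wild type array, knockout array 2 only just, and the log2 fold change was -0.31 ± 0.11 (SE; adjusted p = 0.196). Pex13, its partner, had a log2 fold change of -0.04 ± 0.08 (SE). Pex2 and Pex10, the ubiquitin ligases that mark receptors for return to the cytosol, were at -0.20 ± 0.15 and -0.12 ± 0.11 (SE). Pex2 read 6.51, 6.26 and 5.89 in the knockouts, against 6.45, 6.49 and 6.32 in the wild types, so that only knockout arrays 2 and 3 lay below the wild types. Without knockout array 3 the log2 fold changes were -0.03 for Pex2 and -0.06 for Pex10, and without knockout array 1 that of Pex2 was -0.35. That of Pex10 was -0.18 without knockout array 2, -0.19 without wild type array 1 and -0.07 without wild type array 3. Pex6, the ATPase that pulls the receptors out, was at -0.08 ± 0.09 (SE), and Pex26, its anchor, at -0.11 ± 0.10 (SE).

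Pex3, Pex16 and Pex19 insert membrane proteins into peroxisomes. Pex3 read 8.69, 8.57 and 8.17 in the knockouts, against 8.60, 8.74 and 8.75 in the wild types, a log2 fold change of -0.21 ± 0.14 (SE; adjusted p = 0.466). Knockout array 1 lay within the wild type range and knockout array 3 well below it, and the log2 fold change was -0.06 without array 3 and -0.32 without array 1. Pex16 was at -0.19 ± 0.11 and Pex19 at -0.01 ± 0.10 (log2 fold change ± SE), and neither passed.

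**Figure D2:**
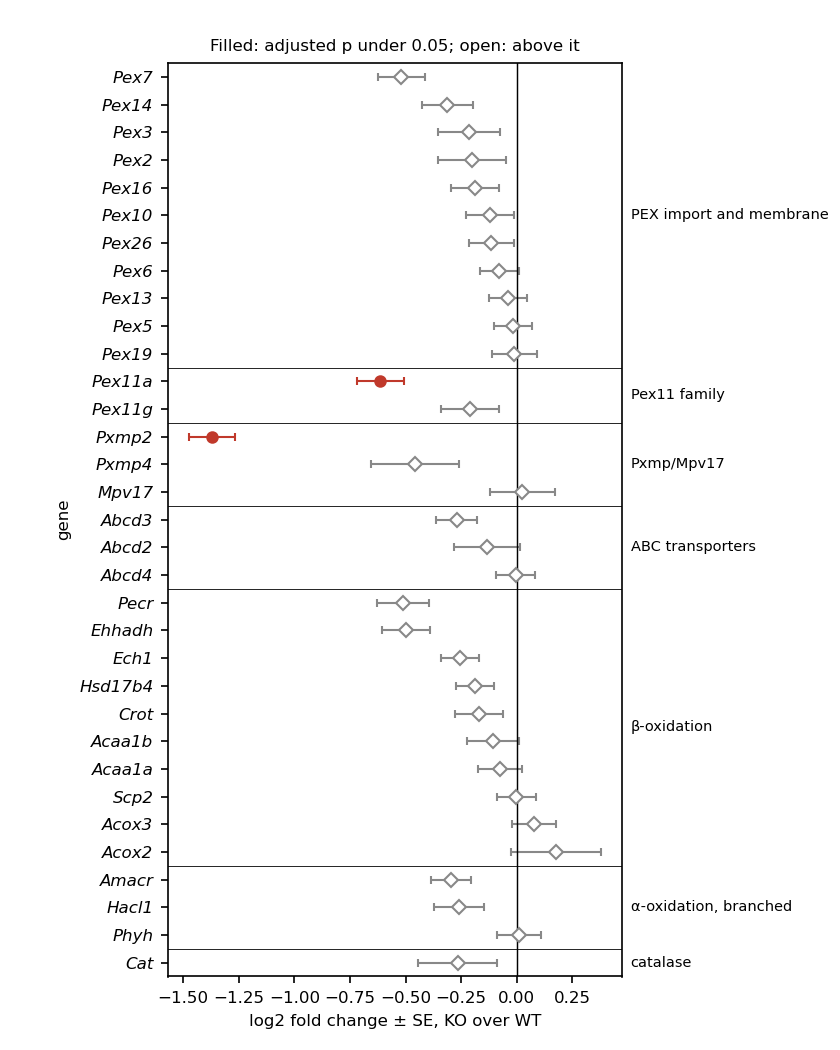
Log2 fold change of the 33 peroxisomal genes, knockout (KO) over wild type (WT), with its standard error, grouped by role. Filled circles mark Pxmp2 at -1.37 and Pex11a at -0.61, which passed an adjusted p of 0.05; open diamonds mark the 31 genes that did not.

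The enzymes of peroxisomal beta-oxidation shorten fatty acyl-CoA in a cycle of oxidation, hydration, dehydrogenation and thiolysis. None of the 10 genes of this group passed, with 3 lower (10.3% of all genes were) and none higher before adjustment of p and 4 with every knockout array below every wild type array (13.8% of all genes). Ehhadh, the L-bifunctional enzyme and a classic PPARα target, read 6.38, 6.22 and 6.33 in the knockouts, against 6.64, 6.85 and 6.93 in the wild types. The log2 fold change was -0.50 ± 0.11 (SE; adjusted p = 0.0716), and it passed only with array weights (0.0354). Hsd17b4, the D-bifunctional enzyme that takes branched chains and very long chains, read 8.92, 9.0 and 8.92 in the knockouts, against 9.05, 9.16 and 9.18 in the wild types. The groups did not overlap, but the log2 fold change was small at -0.19 ± 0.09 (SE; adjusted p = 0.297).

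Pecr, a peroxisomal enoyl-CoA reductase, read 6.29, 6.48 and 6.13 in the knockouts, against 6.91, 6.72 and 6.81 in the wild types. Its log2 fold change of -0.51 ± 0.11 (SE; adjusted p = 0.0786) passed without knockout array 2 (0.0262). In that setting 1017 of all genes passed, against 164 with all arrays. Ech1, a dienoyl-CoA isomerase of peroxisomes and mitochondria, read 9.71, 9.76 and 9.65 in the knockouts, against 10.02, 9.97 and 9.89 in the wild types. The spread within each group was 0.06 (SD, n = 3), and the log2 fold change was -0.25 ± 0.08 (SE; adjusted p = 0.165).

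In the remaining beta-oxidation genes the groups overlapped. Crot, which makes the acylcarnitines that leave the peroxisome, read 9.08, 9.20 and 8.86 in the knockouts, against 9.16, 9.26 and 9.22 in the wild types (log2 fold change -0.17 ± 0.11, SE, and -0.08 without knockout array 3). Scp2, which encodes a sterol carrier and a thiolase for branched chains, was at 0.00 ± 0.09 (SE). The acyl-CoA oxidases Acox2 and Acox3, which start the oxidation of branched substrates, had log2 fold changes of 0.18 ± 0.20 and 0.08 ± 0.10 (SE). Acox2 was dim, at 4.03, 4.11 and 4.75 in the knockouts and 4.20, 3.87 and 4.28 in the wild types, close to the filter at 3.90, and was at -0.05 without knockout array 3.

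Alpha-oxidation removes 1 carbon from fatty acids with a methyl branch, such as phytanic acid from the diet. Hacl1, the lyase of this pathway, read 6.99, 6.75 and 6.61 in the knockouts, against 7.02, 7.03 and 7.07 in the wild types. The knockouts lay below the wild types, array 1 only just, and the log2 fold change was -0.26 ± 0.11 (SE; adjusted p = 0.270), and -0.17 without knockout array 3. Phyh, the hydroxylase of the first step, read 10.41, 10.71 and 10.45 in the knockouts, against 10.55, 10.49 and 10.49 in the wild types, and overlapped. Amacr, the racemase that readies branched acyl-CoA for beta-oxidation, read 6.37, 6.34 and 6.25 in the knockouts, against 6.59, 6.68 and 6.58 in the wild types. Its spread was small, with a log2 fold change of -0.30 ± 0.09 (SE; adjusted p = 0.139).

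The ABC transporters Abcd2 and Abcd3 carry acyl-CoA into the peroxisome. Abcd3 read 8.78, 8.92 and 8.91 in the knockouts, against 9.05, 9.22 and 9.15 in the wild types, a log2 fold change of -0.27 ± 0.09 (SE; adjusted p = 0.169). The groups did not overlap for Abcd3. Abcd2 did overlap, at 9.75, 9.68 and 9.23 in the knockouts and 9.50, 9.80 and 9.75 in the wild types, with a log2 fold change of -0.13 ± 0.15 (SE) that was 0.02 without knockout array 3. Abcd4 was at -0.01 ± 0.09 (SE), with an adjusted p of 0.984.

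**Figure D3:**
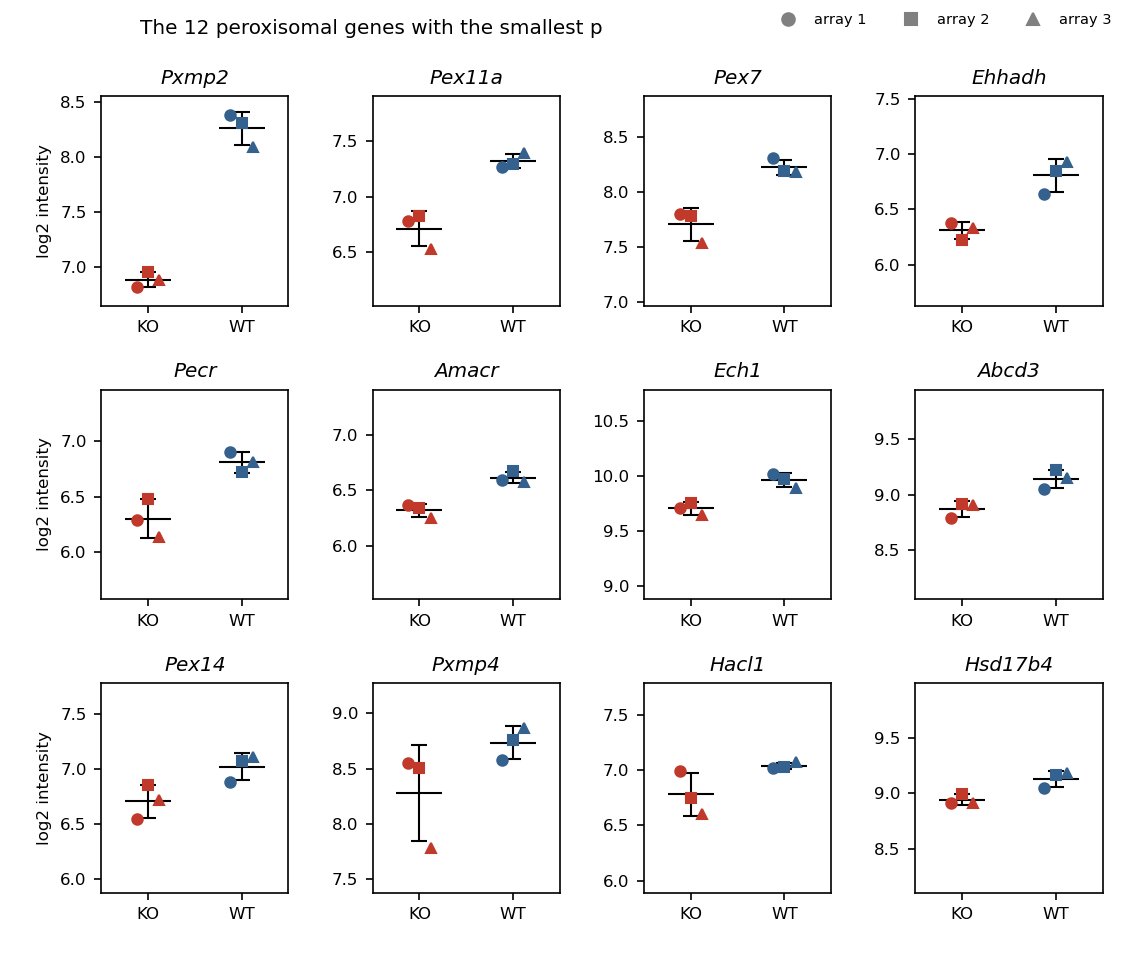
Log2 intensity in each array for the 12 peroxisomal genes with the smallest p, knockout (KO, red) left of wild type (WT, blue). Points are arrays 1 to 3 of each genotype, bars are the mean and SD (n = 3 each), and every panel spans the same height on the log2 scale, so that the gap of 1.37 for Pxmp2 can be compared with 0.19 for Hsd17b4.

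Cat, which breaks down hydrogen peroxide, read 10.69, 10.61 and 10.17 in the knockouts, against 10.45, 10.78 and 11.04 in the wild types. Both groups spread widely (SD 0.28 and 0.30, n = 3 each) and overlapped, and the log2 fold change was -0.26 ± 0.18 (SE; adjusted p = 0.483). It was -0.10 without knockout array 3, -0.42 without wild type array 1 and -0.12 without wild type array 3. Wild type array 1, the lowest of the wild types for Cat, was also the lowest of them for adipocyte markers. This was not particular to Cat, since that array was the lowest of the wild types for 19 of the 33 genes (not counted over all genes). The summed intensity of the 12 adipocyte markers on the arrays, of 14 listed, was 3519 to 3809 in the knockouts and 3438 to 5503 in the wild types. None of these markers was at 0. Of the 12, 2 had every knockout array below every wild type array (16.7%, against 13.8% of all genes), and none passed the threshold. The median log2 fold change of the 12 was -0.42, with 11 negative (91.7%, against 50% of all genes) and 1 positive. Retn and Lep, which encode resistin and leptin, were the most negative, at -1.44 ± 0.37 and -1.15 ± 0.37 (SE; limma adjusted p = 0.102 and 0.157). Adipoq, the adiponectin gene, was at -0.43 ± 0.36 and Fabp4 at -0.02 ± 0.14 (SE). The part of fat cells in the peroxisomal values was not tested, and in whole muscle fewer cells of a type and less RNA per cell cannot be told apart.

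Markers of other cell types differed in summed level, although no macrophage, fibroblast or tendon marker passed the threshold by limma. All 14 macrophage markers were on the arrays, and 10 had every knockout array above every wild type array (71.4%, against 11.1% of all genes), with a summed intensity of 4133 to 7151 in the knockouts and 3084 to 3408 in the wild types. For fibroblast and tendon markers this held for 6 of 11 (54.5%), with sums of 15375 to 22228 in the knockouts and 12796 to 14311 in the wild types. For skeletal muscle markers the summed intensity was 84567 to 95138 in the knockouts and 95594 to 95877 in the wild types. Of these 14 markers, 9 had every knockout array below every wild type array (64.3%, against 13.8% of all genes) and 2 above (14.3%, against 11.1%). Before adjustment of p, 3 were lower (21.4%, against 10.3%) and 3 higher (21.4%, against 8.16%). Of 12 slow and oxidative fibre markers, 7 had negative and 5 positive log2 fold changes (58.3% negative, against 50% of all genes). Myl3, a slow myosin light chain, at -1.23 (limma adjusted p = 0.0256) was the 1 that passed (8.33%, against 0.673% of all genes called lower). Csrp3, a muscle LIM protein, at 1.01 (adjusted p = 0.168) was the most positive. Their summed intensity was 11918 to 19564 in the knockouts and 14120 to 14515 in the wild types. None of these markers was at 0, which held for every probe set and does not show that a cell type was present. The part of these marker differences in the lower peroxisomal values was not tested.

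The arrays contributed unequally. The median difference of the 33 genes from the wild type mean was -0.13, -0.08 and -0.29 in knockout arrays 1, 2 and 3, while the median over all genes tested was -0.05, 0.03 and 0.00. Knockout array 3 held the lowest of all 6 values for 17 genes, array 1 for 11 and array 2 for 2. Wild type arrays held the lowest value for the other 3. These counts were not made over all genes, so they cannot be read as particular to this set. The SD was larger in the knockouts in 22 of the 33 genes (66.7%, against 75.4% of all genes tested). The median SD per gene was 0.121 in the knockouts and 0.0819 in the wild types for the peroxisomal genes, against 0.163 and 0.0912 over all genes tested.

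Further peroxisomal genes were listed beside the 33. Of 54 listed, 46 were on the arrays and 42 passed the filter, of which 30 had negative and 12 positive log2 fold changes, with a median of -0.14. None passed the limma threshold. When p was not adjusted, 11 were lower (26.2%, against 10.3% of all genes) and 1 higher (2.38%, against 8.16%). Every knockout array lay below every wild type array in 16 of them (38.1%, against 13.8% of all genes) and above in 2 (4.76%, against 11.1%). Gstk1, a glutathione transferase of peroxisomes and mitochondria, read 8.85 ± 0.18 in the knockouts and 9.45 ± 0.08 in the wild types (SD, n = 3 each), a log2 fold change of -0.60 ± 0.11 (SE; adjusted p = 0.0503). Mlycd, malonyl-CoA decarboxylase, and Ephx2, the soluble epoxide hydrolase, were at -0.52 ± 0.10 and -0.46 ± 0.09 (SE; adjusted p = 0.0583 and 0.0645).

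The most negative value in that list belonged to Gdap1, a fission factor of mitochondria and peroxisomes, at -1.01 ± 0.30 (SE; adjusted p = 0.135), with a wide spread of 0.69 in the knockouts and 0.26 in the wild types (SD, n = 3 each). The single gene that was higher at an unadjusted p of 0.05 was Far1, the fatty acyl-CoA reductase that supplies alcohols for ether lipids, at 0.42 ± 0.17 (SE; adjusted p = 0.235). Gdap1 and Far1 were chosen after their values were seen. Acot4, Hao1, Hao2 and Baat lay under the filter.

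**Figure D4:**
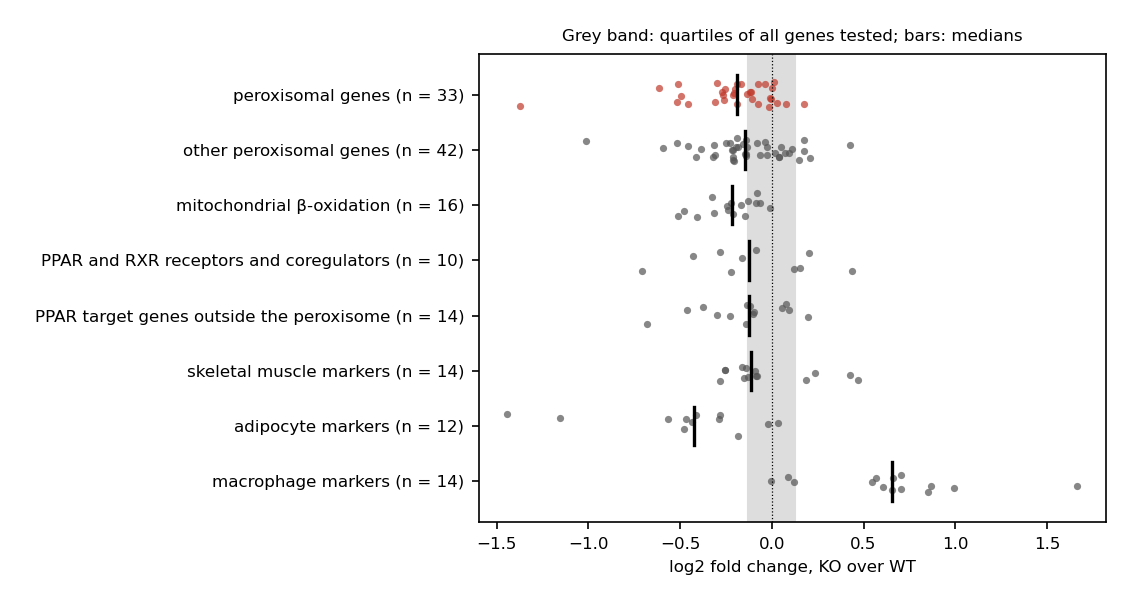
Log2 fold change, knockout (KO) over wild type (WT), of each tested gene in 8 lists, with the list's median as a bar and the quartiles of all genes tested as a grey band. The medians of the peroxisomal genes, the other peroxisomal genes and mitochondrial β-oxidation lie at -0.19, -0.14 and -0.22, and that of the macrophage markers at 0.66.

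Mitochondrial beta-oxidation, the larger fatty acid pathway of muscle, gave values near those of the peroxisomal genes. All 16 of its genes tested had negative log2 fold changes (50% of all genes did), with a median of -0.22. At an unadjusted p of 0.05, 8 were lower (50%, against 10.3% of all genes) and none higher (against 8.16%). In 11 of the 16 every knockout array lay below every wild type array (68.8%, against 39.4% of the 33 peroxisomal genes and 13.8% of all genes). Eci1, an isomerase for unsaturated fatty acids, was the 1 gene that passed (6.25%, against 0.673% of all genes called lower). Its log2 fold change was -0.51 ± 0.09 (SE; limma adjusted p = 0.0426), and its call was lost in 8 of the 16 alternative settings. A difference between the 2 lists was not tested.

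Among the receptors that drive peroxisomal genes, Ppara, which encodes PPARα and is given for that role, was at -0.09 ± 0.10 (log2 fold change ± SE). Rxrg, a muscle-enriched partner of the PPARs, read 8.36, 8.65 and 8.12 in the knockouts, against 9.15, 9.02 and 9.07 in the wild types. The groups did not overlap, and the log2 fold change was -0.71 ± 0.13 (SE; adjusted p = 0.0548). Rxra was at -0.43 ± 0.14 and the coactivator Ppargc1a at 0.44 ± 0.12 (SE; adjusted p = 0.154 and 0.122). By limma, none of the 10 receptors and coregulators tested passed. Before adjustment 2 were lower (20%, against 10.3% of all genes) and 1 was higher (10%, against 8.16%).

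Of the 14 PPAR target genes outside the peroxisome that were tested, none passed by limma, and the median was -0.13. Before adjustment 3 of them were lower (21.4%, against 10.3% of all genes) and none higher (against 8.16%). The mitochondrial uncoupling protein gene Ucp3 was at -0.68 ± 0.17, the fatty acid binding protein gene Fabp3 at -0.38 ± 0.10, and the lipid droplet gene Plin5 at -0.23 ± 0.10 (log2 fold change ± SE). Their adjusted p-values were 0.102, 0.113 and 0.263.

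**Figure D5:**
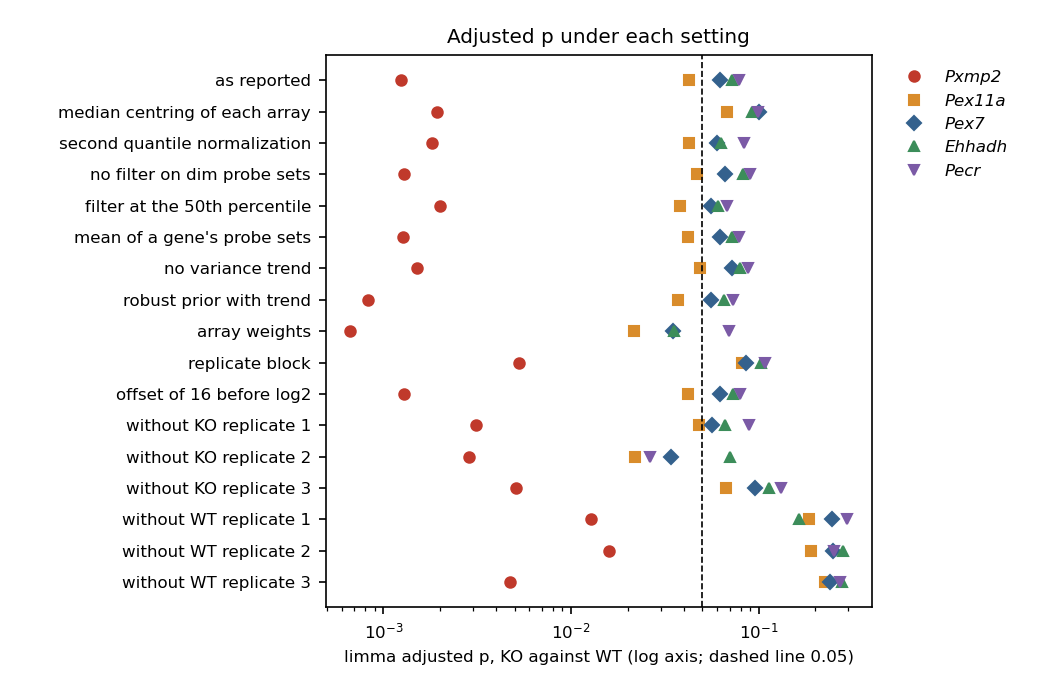
Limma adjusted p of Pxmp2, Pex11a, Pex7, Ehhadh and Pecr, knockout (KO) against wild type (WT), on a log axis, as reported and under 16 alternative settings; the dashed line is 0.05. Pxmp2 stays left of the line in every setting, between 0.000667 and 0.0159, whereas Pex11a lies right of it in 6 of the 16 alternatives.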

How the data were processed

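Total RNA was hybridised to Affymetrix mouse arrays, each taken as 1 mouse. Per the submitters' processing notes, which name RMA and version 1.3.0.187 of Affymetrix Expression Console, the deposited intensity values are probe-set summaries. Their range of 1.59 to 13565.8 shows a linear scale. There are no detection calls, and RMA can shrink differences of dim genes. No source used here gives a genome build. The design had assumed log2 values, so log2 of the 6 deposited columns was taken with no offset, and 0 columns were unmapped.

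The platform annotation supplied gene names: 21789 probe sets had 1 symbol, 1621 several and 12146 none. Only the first kind was used. All 33 genes matched RefSeq (GRCm38.p6) by Entrez ID. Genes with a mean under the 25th percentile of probe sets (3.90, log2) were left out, leaving 16487. The 3 knockout and 3 wild type arrays entered 1 limma fit (limma 3.58.1, R 4.3.3, trended eBayes, Benjamini-Hochberg, threshold 0.05), tested first on simulated data. The number of arrays limits the precision. Each p-value sets the difference between genotypes against the spread of these arrays within a genotype, moderated over all genes tested.

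The genes and lists were chosen with earlier results of these data known. All 33 genes were named, with values per array for those called, the next 10 by p and, beyond the rule and after their values were seen, some others. Of each further pathway list the called genes, or the 3 with the smallest p, were named, and others are said to be chosen later or given for their role. Of the cell type lists, counts and ranges are given with a few markers, chosen with their values known.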

Additional observations from a re-analysis of the deposited data

How the results depend on the processing

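Pxmp2 kept its call in all 16 alternatives to the reported fit. The number of all genes called was 164, and was 103 with each array centred on its median, 329 with array weights and 27 to 1017 with 1 array left out. The number of the 33 peroxisomal genes called was 2. It was 1 with median centring, where Pex11a was lost, 4 with array weights, where Pex7 and Ehhadh were added, and 1 to 4 with 1 array left out. Their median log2 fold change of -0.19 stayed negative throughout, at -0.22 to -0.10 with 1 array left out. Of the other peroxisomal genes 0 were called, and 1 was with the filter at the 50th percentile, 1 with a robust prior, 3 with array weights and 0 to 5 with 1 array left out.

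The labels number the arrays 1 to 3 in both genotypes. With the replicate number as a block, 123 genes were called, 64 lower and 59 higher in the knockouts, and 1 of the 33, since Pex11a had an adjusted p of 0.0812. Same-numbered arrays deviated together with correlations of 0.0088, 0.0822 and -0.0201 over 16487 genes, and differently numbered arrays with -0.063 to 0.046. The labels do not say that the numbers pair mice. With 3 arrays a group these correlations cannot decide it.

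Signs turned in 8 of the 33 genes, none of them past the threshold, with Acox2 (0.18 as reported) and Abcd2 (-0.13) the farthest from 0. With a second quantile normalization Pex19 was at 0.016 and Scp2 at 0.019, and with array weights Pex19 was at 0.018, Scp2 at 0.0035 and Mpv17 at -0.030. With median centring Mpv17 was at -0.015 and Phyh at -0.030. With 1 array left out, the ranges were -0.029 to 0.00079 for Pex5, -0.086 to 0.056 for Pex19, -0.13 to 0.18 for Mpv17, -0.23 to 0.025 for Abcd2, -0.041 to 0.031 for Abcd4, -0.049 to 0.31 for Acox2, -0.042 to 0.028 for Scp2 and -0.082 to 0.068 for Phyh. The cause of these changes was not tested. With 3 arrays a group, small differences cannot be resolved, and dim genes such as Acox2 lie near background.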
